A study of Mus musculus with 8 samples.

Results

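The genes described here are 7 whose transcripts were much more abundant in mouse embryonic fibroblasts kept in each of 3 chemical cocktails than in fibroblast medium: Tmem132c, Fam84a, Ermp1, Aqp1, Cabp7, Rnf183 and Fam163a. They were chosen by name out of 54532 genes in the count table, for a low level in medium and a high level in the cocktails, leaving out known Wnt and retinoid feedback genes. Every one of the 7 was among the 15470 genes with enough counts to be tested. Because the levels in medium and in the cocktails chose them, their difference from medium is given below as a description with no test. The cocktails were then compared with one another, which the choice did not use.

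All cells were wild-type embryonic fibroblasts (MEFs), and RNA was taken on day 4 and sequenced as 2 libraries per group, 8 in all. The MEF group stayed in fibroblast medium. The CFAE+8 group received CHIR99021 (C, an inhibitor of the kinase GSK-3 that raises beta-catenin), Forskolin (F, which activates adenylyl cyclase and raises cyclic AMP), AM580 (A, which activates retinoic acid receptor alpha), the compound labelled EPZ04777 (E, an inhibitor of the histone methyltransferase DOT1L) and A-83-01 (8, an inhibitor of TGF-beta type I receptors). The CFAE+8+MSC group received the same with MSC2530818 (MSC, an inhibitor of the Mediator kinases CDK8 and CDK19). In the CFAE+6 group E-616452, another TGF-beta type I receptor inhibitor, took the place of A-83-01. No doses are given in the labels. Nor is it stated there if paired libraries are independent cultures, and the p-values below therefore reflect only library-to-library spread, which may be technical. No group received 1 compound alone.

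The 7 genes encode proteins of different kinds. Aqp1 makes the water channel of red blood cells, kidney proximal tubule, choroid plexus and many capillaries, and its function is well known, so the description of the group as genes of unclear role does not hold for it. Cabp7 makes a calmodulin-like calcium sensor of the Golgi membrane that can inhibit phosphatidylinositol 4-kinase beta. Ermp1 makes a zinc peptidase of the endoplasmic reticulum, and Rnf183 makes a membrane-bound RING ubiquitin ligase known from kidney and from the response to endoplasmic reticulum stress. Fam84a, also called Lratd1, carries a domain named for lecithin retinol acyltransferase, the enzyme that esterifies vitamin A. Tmem132c is one of a small family of single-pass membrane proteins with adhesion-like domains, and Fam163a was described in neuroblastoma.

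In mm10 the genes lie on 7 different chromosomes, as the count table gives them. Tmem132c (ENSMUSG00000034324) spans chr5:127241808-127565793 on the plus strand, with 12 merged exons. Aqp1 (ENSMUSG00000004655) spans chr6:55336432-55348555, also on the plus strand, with 4 exons. The other 5 are on the minus strand: Fam84a (ENSMUSG00000020607) at chr12:14146830-14152054, Ermp1 (ENSMUSG00000046324) at chr19:29608214-29648415, Cabp7 (ENSMUSG00000009075) at chr11:4736892-4746778, Rnf183 (ENSMUSG00000063851) at chr4:62427540-62435252 and Fam163a (ENSMUSG00000015484) at chr1:156075966-156205026. The exons of 6 of the 7 overlap those of no other annotated gene. Cabp7 shares 338 bp, 12.9% of its exon length, with Zmat5 on the opposite strand, and since the kit used keeps no strand information, reads there cannot be told apart. Zmat5 had 85 counts over the 2 MEF libraries, where Cabp7 had 0.

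The 250 bases before each annotated start were read from the RefSeq promoter table of GRCm38.p6, which held all 7 genes with 8 promoters (2 for Rnf183, and Fam84a under Lratd1). They are shown for what the start regions of genes chosen for a rise over MEF have in common. The 4 below are the start regions with a TCF/LEF core (Rnf183 and Ermp1), the one richest in G and C (Cabp7) and the one with both GC and CCAAT boxes (Fam84a). Each is written 5′ to 3′ on the gene's own strand, ending 1 base before the start. Capitals mark every match, on either strand, to 6 letter strings: CTTTGA (the TCF/LEF core), TGACG (a core stretch of the cyclic AMP response element), AGGTCA (a single arm of a nuclear receptor site), GGGCGG (GC box), CCAAT and TATAAA.
Rnf183, first promoter, chr4:62435251-62435500, minus strand: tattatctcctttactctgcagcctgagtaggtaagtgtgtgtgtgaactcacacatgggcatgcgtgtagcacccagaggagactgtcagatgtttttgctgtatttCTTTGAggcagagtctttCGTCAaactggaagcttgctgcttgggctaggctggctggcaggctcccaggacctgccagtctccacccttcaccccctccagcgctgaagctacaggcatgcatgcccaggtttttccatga
Ermp1, chr19:29648416-29648665, minus strand: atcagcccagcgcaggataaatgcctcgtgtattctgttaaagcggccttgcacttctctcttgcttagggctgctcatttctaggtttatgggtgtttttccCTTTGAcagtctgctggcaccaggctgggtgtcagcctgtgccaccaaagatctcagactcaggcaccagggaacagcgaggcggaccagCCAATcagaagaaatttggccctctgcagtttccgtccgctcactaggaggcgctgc
Cabp7, chr11:4747180-4747429, minus strand: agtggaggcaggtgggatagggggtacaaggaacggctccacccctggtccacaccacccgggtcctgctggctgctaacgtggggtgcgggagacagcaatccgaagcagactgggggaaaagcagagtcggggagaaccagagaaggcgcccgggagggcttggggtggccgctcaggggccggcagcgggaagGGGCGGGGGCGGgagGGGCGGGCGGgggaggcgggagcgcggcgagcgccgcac
Fam84a, chr12:14152039-14152288, minus strand: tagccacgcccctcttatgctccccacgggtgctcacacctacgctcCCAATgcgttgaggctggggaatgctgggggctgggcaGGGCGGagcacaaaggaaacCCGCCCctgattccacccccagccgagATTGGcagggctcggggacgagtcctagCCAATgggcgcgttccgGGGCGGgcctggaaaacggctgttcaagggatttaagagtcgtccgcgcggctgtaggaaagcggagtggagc

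No string occurred in all 8 promoters. CTTTGA was found in 2, 147 to 142 bases before the start of Ermp1 and 142 to 137 bases before the first start of Rnf183. It occurs in 13.8% of the 32851 mouse promoters of that length. TGACG was found only in the first Rnf183 promoter, on the other strand at 124 to 120 bases (17.8% of all promoters hold it). AGGTCA was found only in the second Rnf183 promoter at 135 to 130 bases (14.0% of all). GGGCGG was in 5 of the 8, against 32.7% of all promoters, with 4 matches in Tmem132c, 4 in Cabp7 of which the last pair overlap by 2 bases, 3 in Fam84a and 1 each in Aqp1 and Fam163a. CCAAT was in 2, Fam84a with 3 matches and Ermp1 with 1 (33.9% of all), and TATAAA was in 0 (12.4% of all). The GC content ran from 72.4% in Cabp7, 68.0% in Tmem132c and 64.8% in Fam84a to 50.8% in the second Rnf183 promoter, around a median of 52.4% for all promoters. The same 3 GC-rich promoters had a CpG observed-to-expected ratio of 0.72 to 0.73, whereas that of the first Rnf183 promoter was 0.17 and the median of all was 0.37. The RefSeq start lay 401 bases from the start in the count table for Cabp7 and 133 bases for Aqp1, so these 2 windows depend on which start is used. A match is only a run of letters, and binding was not measured.

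Library totals ran from 10958430 to 11913143 counts, and at least 99.84% of them fell in tested genes. Levels below are in CPM, the counts scaled to library size by the trimmed mean of M-values. Fibroblast transcripts were present throughout: the 9 fibroblast markers summed to 30400 to 31150 CPM in the MEF libraries and to 11860 to 13210 CPM in the 6 cocktail libraries, with none at 0. They did not move as 1 group. Col1a1 was at 14726 CPM in MEF and 4058, 4324 and 3506 CPM with CFAE+8, CFAE+8+MSC and CFAE+6. The means of Col1a2, Col3a1, Pdgfrb, Vim and Dcn were also lower in each cocktail. Those of Thy1, Pdgfra and Lum were higher in each, Thy1 at 1100, 1506 and 1535 CPM against 681. Red blood cell markers summed to at most 0.52 CPM in any library. In such bulk RNA, more cells of a type and more RNA per cell cannot be told apart.

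**Figure D1:**
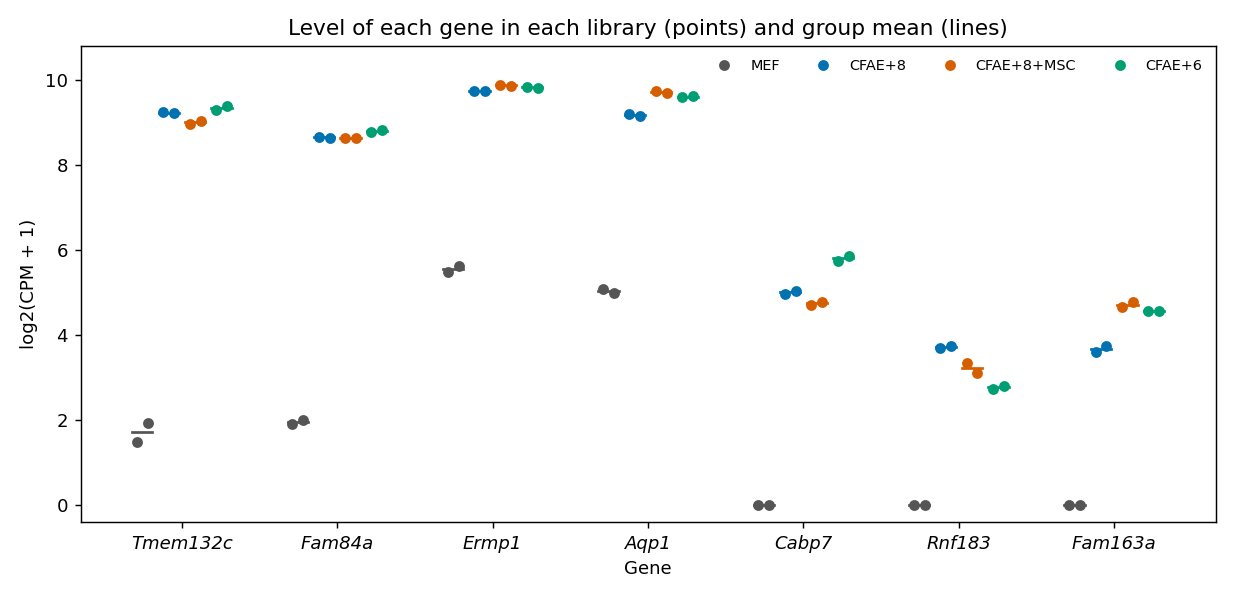
Level of each of the 7 genes, as log2(CPM + 1), in each of the 8 libraries (points) with the group mean (lines), coloured by group. Every cocktail library lies above both MEF libraries for each gene, and Cabp7, Rnf183 and Fam163a sit at 0 in MEF.

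The calcium sensor gene Cabp7, the ligase gene Rnf183 and Fam163a had no count in either MEF library. In the cocktail libraries Cabp7 was counted 357 and 376 times with CFAE+8, 292 and 293 times with CFAE+8+MSC, and 601 and 669 times with CFAE+6. Fam163a had 130 and 147, 281 and 292, and 256 and 266 counts in the same order. Rnf183 had 141 and 147, 106 and 84, and 64 and 70 counts. For all 3 genes the cocktail libraries lie far above a MEF group in which a count of 0 allows up to 3 counts, or 0.14 CPM. Set against that limit, Cabp7 was at least 223-fold, 185-fold and 394-fold higher in CFAE+8, CFAE+8+MSC and CFAE+6. Fam163a was at least 84.2-fold, 181-fold and 162-fold higher, and Rnf183 at least 87.6-fold, 59.9-fold and 41.6-fold. Without the second MEF library, when the same 3 counts are set over 1 library, the log2 bounds for Cabp7 go down from 7.80, 7.53 and 8.62 to 6.77, 6.50 and 7.59, and those of the other two by as much. Of 126 tested genes with no MEF count, 10 reached 5 CPM in all 3 cocktails. These 3 are among them, which follows from how they were chosen.

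The membrane protein gene Tmem132c and the LRAT-domain gene Fam84a were low but present in MEF. The MEF libraries held 19 and 31 counts of Tmem132c, those of CFAE+8 7072 and 7004, those of CFAE+8+MSC 5736 and 5836, and those of CFAE+6 7147 and 7842. Its mean was 2.32 ± 0.731 CPM (SD, n = 2) in MEF and 599 ± 6.82, 512 ± 21.9 and 651 ± 29.1 CPM in the cocktails, or 258-fold, 221-fold and 280.1-fold higher. Of Fam84a the MEF libraries held 29 and 33 counts, those of CFAE+8 4721 and 4687, those of CFAE+8+MSC 4607 and 4353, and those of CFAE+6 4961 and 5279. Its mean went from 2.89 ± 0.189 CPM to 400.3 ± 3.87, 396 ± 3.76 and 445 ± 10.3 CPM, or 139-fold, 137-fold and 154-fold higher. When levels are taken per kilobase of exon, both genes were among the low tested genes in MEF and near the top in the cocktails: Tmem132c from percentile 11.8 in MEF to 97.4, 96.8 and 97.5 in the cocktails, and Fam84a from percentile 17.2 to 97.0, 97.0 and 97.3.

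Ermp1 and Aqp1 were already expressed in fibroblast medium, so near zero does not describe them. The 2 MEF libraries gave Ermp1 459 and 527 counts, against 9961 and 10091 with CFAE+8, 10930 and 10310 with CFAE+8+MSC, and 10281 and 10562 with CFAE+6. Its mean of 45.9 ± 3.29 CPM in MEF, at percentile 49.5 per kilobase, compares with 853 ± 3.93, 939.5 ± 10.03 and 905 ± 1.58 CPM, or 18.6-fold, 20.4-fold and 19.7-fold more. For Aqp1 they gave 348 and 338 counts, against 6928 and 6675 with CFAE+8, 9883 and 9073 with CFAE+8+MSC, and 8755 and 9190 with CFAE+6. It averaged 32.0 ± 1.49 CPM in MEF and 579 ± 17.9, 838 ± 25.01 and 779 ± 10.5 CPM in the cocktails, or 18.1-fold, 26.2-fold and 24.3-fold more. Per kilobase of exon Aqp1 was the highest of the 7 in each group, at 220.3, 319 and 297 CPM per kilobase in the 3 cocktails, which put it above 99.0% of tested genes there. Tmem132c, Fam84a and Ermp1 lay close together below it, between 87.6 and 111 CPM per kilobase, while Cabp7, Rnf183 and Fam163a stayed between 3.04 and 20.97.

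The smallest of the 7 genes' 3 folds over MEF was the 18.1-fold of Aqp1 in CFAE+8, and 137 tested genes (0.886% of all), 126 of them protein coding, had at least that fold in all 3 cocktails. By that smallest fold the genes ranked 10 (Tmem132c), 14 (Cabp7), 16 (Fam84a), 31 (Fam163a), 62 (Rnf183), 132 (Ermp1) and 137 (Aqp1). The next protein-coding gene below Aqp1 was Gad1, an enzyme of GABA synthesis, at 17.9-fold. The choice therefore took 7 of many genes with such folds and was not set by the fold alone. Over all tested genes, 62% were called in CFAE+8 against MEF, 64.1% in CFAE+8+MSC and 63.1% in CFAE+6, with 30.8%, 31.9% and 31.6% higher and 31.3%, 32.2% and 31.5% lower. Nothing is read from those shares about the 7 genes.

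**Figure D2:**
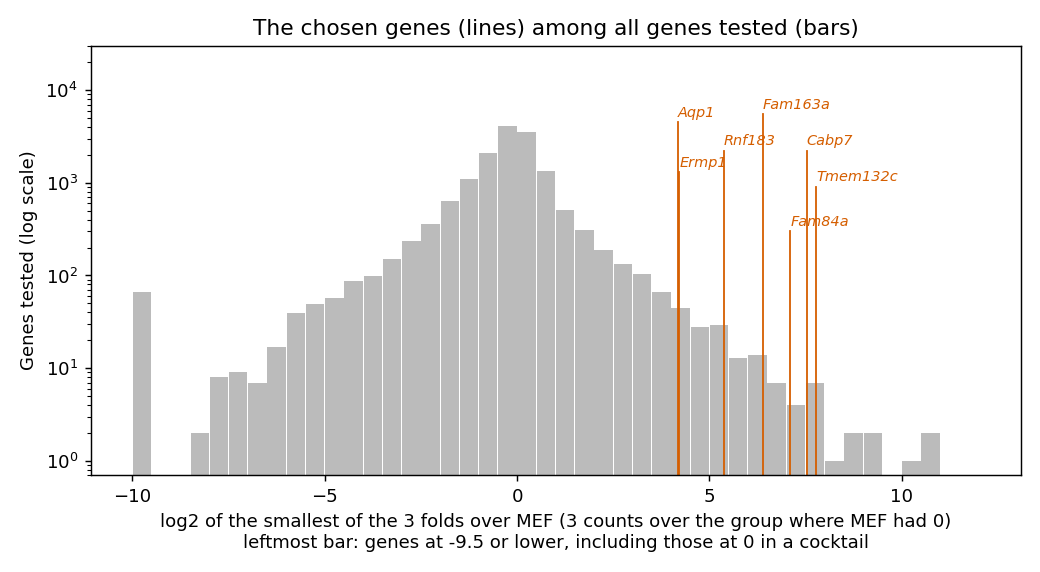
Number of tested genes (log scale) by the log2 of the smallest of their 3 folds over MEF, in bins of 0.5 log2 units, with the 7 chosen genes as lines. The lines run from 4.18 (Aqp1) to 7.79 (Tmem132c), out in the right tail.

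The cocktails were compared with one another to see what the CDK8/19 inhibitor and the exchange of TGF-beta receptor inhibitors added. The fits used all 8 libraries in edgeR's quasi-likelihood test, and p-values were adjusted by Benjamini-Hochberg over the 15470 genes. CFAE+8 is the reference in 2 of the 3 comparisons, and each group enters 2, so they are not independent.

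With MSC2530818 added to CFAE+8 the cells had higher Fam163a, Aqp1 and Ermp1 and lower Tmem132c, Rnf183 and Cabp7, while Fam84a did not pass the test. That is 6 of 7 genes called, where 29.3% of all tested genes were called (15.6% higher and 13.8% lower). Fam163a showed the largest difference, 25.4 ± 1.46 CPM against 11.8 ± 0.969 (log2 difference 1.11 ± 0.14 SE, adjusted p 2.12e-07 in edgeR). Aqp1 was 1.45-fold higher (log2 0.53 ± 0.04, adjusted p 4.5e-11 in edgeR), and in both genes the 2 groups of libraries were well apart. Ermp1 rose by only 1.10-fold (log2 0.14 ± 0.04, adjusted p 0.0108), a step that exceeded the spread between these libraries but is small beside its rise over MEF.

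Among the genes that fell, Tmem132c was lower by a log2 difference of -0.23 ± 0.05 (adjusted p 0.000627 in edgeR). Rnf183 differed by -0.54 ± 0.18 on the log2 scale (8.39 ± 1.12 against 12.3 ± 0.305 CPM, adjusted p 0.0242), and Cabp7 by -0.27 ± 0.10 (25.9 ± 0.855 against 31.2 ± 1.00 CPM, adjusted p 0.049). The last call is at the threshold. Cabp7 missed the threshold in 12 of 16 other settings, among them every setting that left out a library of either group. Over all 16 settings its adjusted p-values ran from 0.0415 to 0.681 in edgeR or DESeq2. Rnf183 missed the threshold without the first CFAE+8 library (adjusted p 0.083), without the second (0.125) and without the second CFAE+8+MSC library (0.205), and Ermp1 without the first CFAE+8 library (0.0908), without the second (0.069) and without the first CFAE+8+MSC library (0.056). Without either CFAE+8 library, 3 of the 7 genes were called. Fam84a had 396 ± 3.76 against 400.3 ± 3.87 CPM, a log2 difference of -0.01 with a 95% interval from -0.11 to 0.08 (adjusted p 0.857).

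With E-616452 in place of A-83-01, 4 genes were higher (Fam163a, Cabp7, Aqp1 and Fam84a), Rnf183 was lower, and Tmem132c and Ermp1 did not pass. These 5 calls compare with 26.6% of all tested genes (14.3% higher and 12.3% lower). Fam163a was at 22.7 ± 0.142 CPM against 11.8 ± 0.969 (log2 0.94 ± 0.14, adjusted p 4.44e-06 in edgeR), and Cabp7 at 55.1 ± 3.03 against 31.2 ± 1.00 CPM (log2 0.82 ± 0.09, adjusted p 8.2e-08). Aqp1 was 1.35-fold higher (log2 0.43 ± 0.04, adjusted p 5.55e-09), and Fam84a 1.11-fold (log2 0.15 ± 0.05, adjusted p 0.0133). The Fam84a call was lost without the first or second CFAE+8 library (adjusted p 0.0735 and 0.123 in edgeR) and without the second CFAE+6 library (0.105).

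Rnf183 moved the other way, with 64 and 70 counts in CFAE+6 against 141 and 147 in CFAE+8 (log2 -1.07 ± 0.19, adjusted p 8.29e-05 in edgeR), and it was the only one of the 7 whose highest level was in CFAE+8. The ligase gene and the calcium sensor gene thus differed in opposite directions: the cocktail with A-83-01 had more Rnf183 and the one with E-616452 more Cabp7. The test gave 0.12 ± 0.05 on the log2 scale for Tmem132c, with an interval of 0.02 to 0.22 (adjusted p 0.0683), a value that passed in 6 of 16 other settings, those without either MEF library (0.0481 and 0.0477) or without the first CFAE+6 library (0.0237) included. For Ermp1 it gave 0.09 ± 0.04, with an interval of 0.00093 to 0.17 (adjusted p 0.133).

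Set directly against each other, CFAE+8+MSC had less Cabp7, Tmem132c and Fam84a than CFAE+6, and no gene of the 7 was higher. The 3 calls compare with 10.5% of all tested genes (6.21% higher and 4.27% lower). Cabp7 had 292 and 293 counts against 601 and 669 (log2 -1.09 ± 0.10, adjusted p 3.08e-09 in edgeR), Tmem132c differed by -0.35 ± 0.05 (adjusted p 9.67e-06) and Fam84a by -0.17 ± 0.05 (adjusted p 0.0163). Fam84a missed the threshold without the first or second CFAE+8+MSC library (0.0642 and 0.107) and without the second CFAE+6 library (0.134). The 4 that did not pass had log2 differences of 0.53 for Rnf183 (interval 0.12 to 0.94, adjusted p 0.0979), 0.16 for Fam163a (-0.09 to 0.42, 0.485), 0.11 for Aqp1 (0.02 to 0.19, 0.123) and 0.05 for Ermp1 (-0.03 to 0.14, 0.483).

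**Figure D3:**
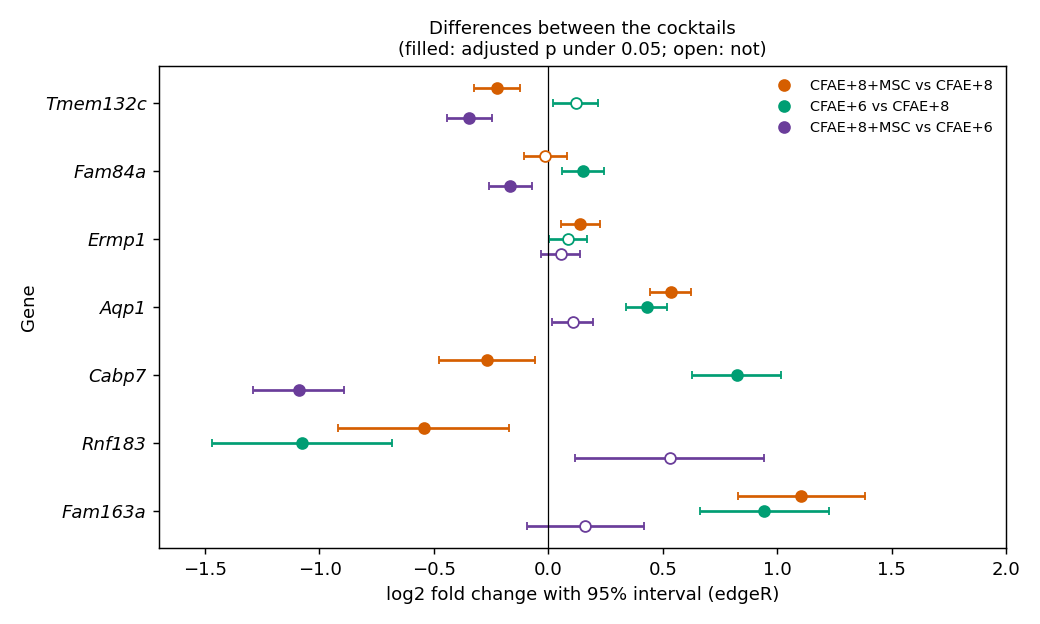
Log2 fold change (points) with 95% interval (bars) of each gene in the 3 comparisons between cocktails, from edgeR, filled where the adjusted p is under 0.05. Fam163a and Aqp1 lie right of 0 in both comparisons with CFAE+8, and Rnf183 lies left of 0 in both.

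The genes therefore did not keep 1 order across cocktails. Fam163a and Aqp1 shared the order CFAE+8 below CFAE+6 below CFAE+8+MSC, in which the upper 2 did not differ past the threshold. Ermp1 had the same order of means, in which only the ends differed. Cabp7 and Tmem132c had the order CFAE+8+MSC, CFAE+8, CFAE+6 from low to high. For Cabp7 every step passed the threshold, but the lower one (adjusted p 0.049 in edgeR) was lost in 12 of 16 other settings. For Tmem132c only the lower step passed. Fam84a was highest in CFAE+6 with the other two not told apart, and Rnf183 fell from CFAE+8 over CFAE+8+MSC to CFAE+6, in which the lower 2 did not differ past the threshold. The highest cocktail mean exceeded the lowest by 2.15-fold for Fam163a, 2.13-fold for Cabp7 and 2.11-fold for Rnf183, but by 1.45-fold for Aqp1, 1.27-fold for Tmem132c, 1.12-fold for Fam84a and 1.10-fold for Ermp1. The 3 genes that were at 0 in MEF are thus the ones that varied most between cocktails. They also have the lowest counts.

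The median absolute log2 difference of the 7 genes was 0.27 for the added CDK8/19 inhibitor, 0.43 for the exchanged receptor inhibitor and 0.17 between CFAE+8+MSC and CFAE+6. In the tested genes that reached 5 CPM it was 0.17, 0.16 and 0.12.

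Aqp1 is also a gene of blood vessel cells, and the endothelial markers did not move as 1 group. The 7 endothelial markers summed to 19.96 to 20.33 CPM in MEF, to 58.78 to 65.56 CPM with CFAE+8, to 110.2 to 114.6 CPM with CFAE+8+MSC and to 91.24 to 99.78 CPM with CFAE+6, a sum in the order of Aqp1. Most of that sum in the cocktails was Esam and Kdr. Esam, a cell adhesion molecule, was at 1.17 CPM in MEF and 36.0, 58.9 and 37.2 CPM with CFAE+8, CFAE+8+MSC and CFAE+6. Kdr, a VEGF receptor, was at 13.9 and then 20.6, 44.6 and 50.3 CPM. The mean of Kdr was highest in CFAE+6, while Aqp1 did not differ past the threshold between CFAE+6 and CFAE+8+MSC. Tek had 1.91 CPM in MEF and 0.98, 1.06 and 0.74 CPM in the cocktails, and Emcn 2.24 CPM in MEF, 0.085 in CFAE+8 and 0 in the other two, both against the direction of Aqp1. Cdh5 had 0.84 CPM in MEF and 4.08, 7.44 and 6.25 CPM in the cocktails, with the direction and order of Aqp1. The defining marker Pecam1 was at 0.048 CPM in MEF and 0.34, 0.13 and 0.57 CPM in the cocktails. Cldn5 was at 0 in MEF and 0.13, 0.27 and 0.44 CPM in the cocktails. The part of endothelial cells in the Aqp1 levels was not tested. For the kidney tubule and choroid plexus, the 5 markers summed to 32.06 to 32.12 CPM in MEF and to 1.45 to 5.43 CPM in the cocktails, with 3 at 0 in MEF and 2 at 0 in each cocktail. That sum was nearly all Lrp2, an endocytic receptor, at 30.9 CPM in MEF and 1.53, 5.18 and 3.09 CPM with CFAE+8, CFAE+8+MSC and CFAE+6, so it was lower than in MEF while its order among the cocktails was that of Aqp1. The sums of the epithelial and mesothelial markers had the same order among the cocktails. The 4 epithelial markers summed to 7.51 to 8.79 CPM in MEF, then 8.905 to 9.56, 30.66 to 33.52 and 25.39 to 26.11 CPM. The 6 mesothelial markers summed to 144.6 to 147.5 CPM in MEF, then 5.34 to 6.40, 27.4 to 30.57 and 25.25 to 26.8 CPM. Krt8 is in both lists. Krt8, Krt18, Msln and Upk3b had the order of the sums. Among the cocktails, Epcam, Cdh1, Wt1 and Krt19 were highest in CFAE+6, at 1.36, 1.61, 4.91 and 10.7 CPM. Lrrn4 was at 0 in each cocktail. The 5 macrophage markers summed to 156.1 to 157.5 CPM in MEF and 14.47 to 31.67 CPM in the cocktails, and the 4 astrocyte markers to 11.88 to 13.1 and 7.77 to 17.54 CPM. The 7 neuronal markers are given because Fam163a and Cabp7 are known from neural tissue. They summed to 66.52 to 72.18 CPM in MEF and 104.5 to 134.6 CPM in the cocktails. Of these markers, 2 were at 0 in MEF, 1 at 0 in CFAE+8 and CFAE+8+MSC and none at 0 in CFAE+6. Most of that sum was Tubb3 and Stmn2. Tubb3 was at 36.38 CPM in MEF and 68.997, 59.05 and 53.74 CPM with CFAE+8, CFAE+8+MSC and CFAE+6. Stmn2 was at 14.48 and then 30.81, 61.57 and 54.43 CPM. Map2 went the other way, at 16.96 CPM in MEF and 3.45, 2.03 and 2.91 CPM in the cocktails. Syt1 was at 1.49 CPM in MEF, then 0.55, 2.33 and 1.74 CPM. Snap25 and Elavl3 were higher in each cocktail than in MEF. The part of these cell types in the results was not tested either. The share of mitochondrial counts was 1.21% to 1.24% in MEF and 1.96% to 2.21% in the cocktails.

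Relatives of the 7 genes were looked at to see whether whole families went up. Of 43 listed relatives, 26 had enough counts to be tested. Against MEF, 11 were higher and 8 lower in CFAE+8, 14 higher and 6 lower in CFAE+8+MSC, and 14 higher and 6 lower in CFAE+6. Their median log2 difference was 0.30, 0.74 and 0.63 with the 2 relatives at 0 in MEF (Lrat and Caln1) left out, and 0.30, 0.93 and 0.75 with these at their lower bound, where all tested genes had 0.01, 0.01 and 0.02. Against CFAE+8, 7 were higher and 3 lower in CFAE+8+MSC (median 0.32), and 9 higher and 3 lower in CFAE+6 (median 0.05), against medians of -0.0045 and 0.00088 for all tested genes. Between CFAE+8+MSC and CFAE+6, 4 were higher and 1 lower (median -0.10). Over all tested genes the 3 comparisons with MEF called 30.8%, 31.9% and 31.6% higher and 31.3%, 32.2% and 31.5% lower. The 3 between cocktails called 15.6%, 14.3% and 6.21% higher and 13.8%, 12.3% and 4.27% lower.

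In the TMEM132 family, the most highly expressed relative Tmem132a went from 77.4 ± 4.52 CPM in MEF to 135 ± 0.889, 159 ± 3.70 and 135 ± 4.56 CPM (log2 0.80, 1.04 and 0.80; adjusted p 2.28e-12, 4.27e-15 and 2.16e-12 in edgeR). Tmem132b is the nearest protein-coding gene to the left of Tmem132c, 1449225 bases away. It had 3 counts over the MEF group and 24, 49 and 80 counts in CFAE+8, CFAE+8+MSC and CFAE+6, and passed the test against MEF in all 3. Tmem132d passed only in CFAE+6 (0.84 against 2.65 CPM), and Tmem132e was lower in CFAE+8 alone, at 3.36 against 7.499 CPM, and did not pass against MEF in the other two.

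Of the LRAT-domain relatives 1 was higher and 1 lower than in MEF in CFAE+8, 2 and 1 in CFAE+8+MSC, and 3 and 1 in CFAE+6. Fam84b, its closest paralog, was at 21.3 CPM in MEF and 17.8, 40.2 and 27.8 CPM in the cocktails. It passed as higher in CFAE+8+MSC and CFAE+6 and did not pass in CFAE+8 (adjusted p 0.0567 in edgeR). It was also higher with the CDK8/19 inhibitor than without (log2 1.18 ± 0.11, adjusted p 5.24e-10). Lrat, the vitamin A esterifying enzyme itself, had 0 counts in MEF and 2, 17 and 28 in CFAE+8, CFAE+8+MSC and CFAE+6, and passed against MEF in CFAE+8+MSC and CFAE+6. Pla2g16, a phospholipase of the same fold, fell from 12.8 CPM to 1.148, 0.76 and 1.00 CPM, and Hrasls stayed below 1.3 CPM in every group.

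Among the peptidase relatives of Ermp1, directions were mixed. Qpct, which cyclises N-terminal glutamine, was higher than in MEF in all 3 cocktails, at 28.8, 13.3 and 11.6 CPM against 6.40, and was highest in CFAE+8. Tfrc, the transferrin receptor, which carries a peptidase-like domain, was at 104 CPM in MEF and 108 in CFAE+8, where it did not pass, and at 198 and 170.1 CPM in CFAE+8+MSC and CFAE+6, where it did. The peptidase gene Cpq was lower in all 3, at 23.1, 12.9 and 16.5 against 46.9 CPM, as was Naalad2 at 1.40, 0.79 and 0.96 against 7.82 CPM. Naaladl1 was higher in CFAE+8 and CFAE+8+MSC at under 3 CPM, and Qpctl, near 30 CPM, passed in no comparison.

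Aqp1 was the only aquaporin at a high level. Of 11 other aquaporins, 8 had too few counts to be tested. The lung and gland water channel Aqp5 was lower than in MEF in each cocktail, at 12.5, 18.3 and 19.5 CPM against 24.4. Aqp11, an intracellular channel whose CFAE+8 libraries were far apart, was higher in each. Its means were 3.24 ± 1.70, 7.03 ± 0.028 and 6.21 ± 0.19 CPM against 1.81 ± 0.41 (SD, n = 2). Both were higher in CFAE+8+MSC and in CFAE+6 than in CFAE+8, as Aqp1 was (adjusted p 0.00484 and 0.00123 for Aqp5, 0.00208 and 0.0112 for Aqp11, in edgeR). Aqp3 had 7 to 20 counts per group and passed in no comparison.

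Calm2 and Calm3, calmodulin genes related to Cabp7, were abundant in every group. Calm2 was lower in the cocktails than in MEF (179 to 205 against 305 CPM), and Calm3 was higher (530 to 630 against 459 CPM). Between cocktails, Calm3 was lower in CFAE+8+MSC than in the other two, as Cabp7 was, and Calm2 did not pass. Caln1, the nearest relative of Cabp7, had 0 counts in MEF and means of 1.28, 1.68 and 2.66 CPM in the cocktails, a difference that passed in all 3. Cabp1 was between 1.66 and 3.22 CPM. The RING ligases Rnf182, Rnf223 and Rnf225 were higher than in MEF in all 3 cocktails but low: Rnf225 reached 5.91, 7.33 and 3.51 CPM from 1.22, Rnf182 4.17, 5.56 and 5.98 CPM from 1.12, and Rnf223 stayed under 3 CPM. Rnf225 shared with Rnf183 a lower level in CFAE+6 than in CFAE+8 (log2 -0.75 ± 0.25, adjusted p 0.0228 in edgeR). Rnf152 was lower in CFAE+8 than in MEF. Fam163b, the only relative of Fam163a, had too few counts to be tested.

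**Figure D4:**
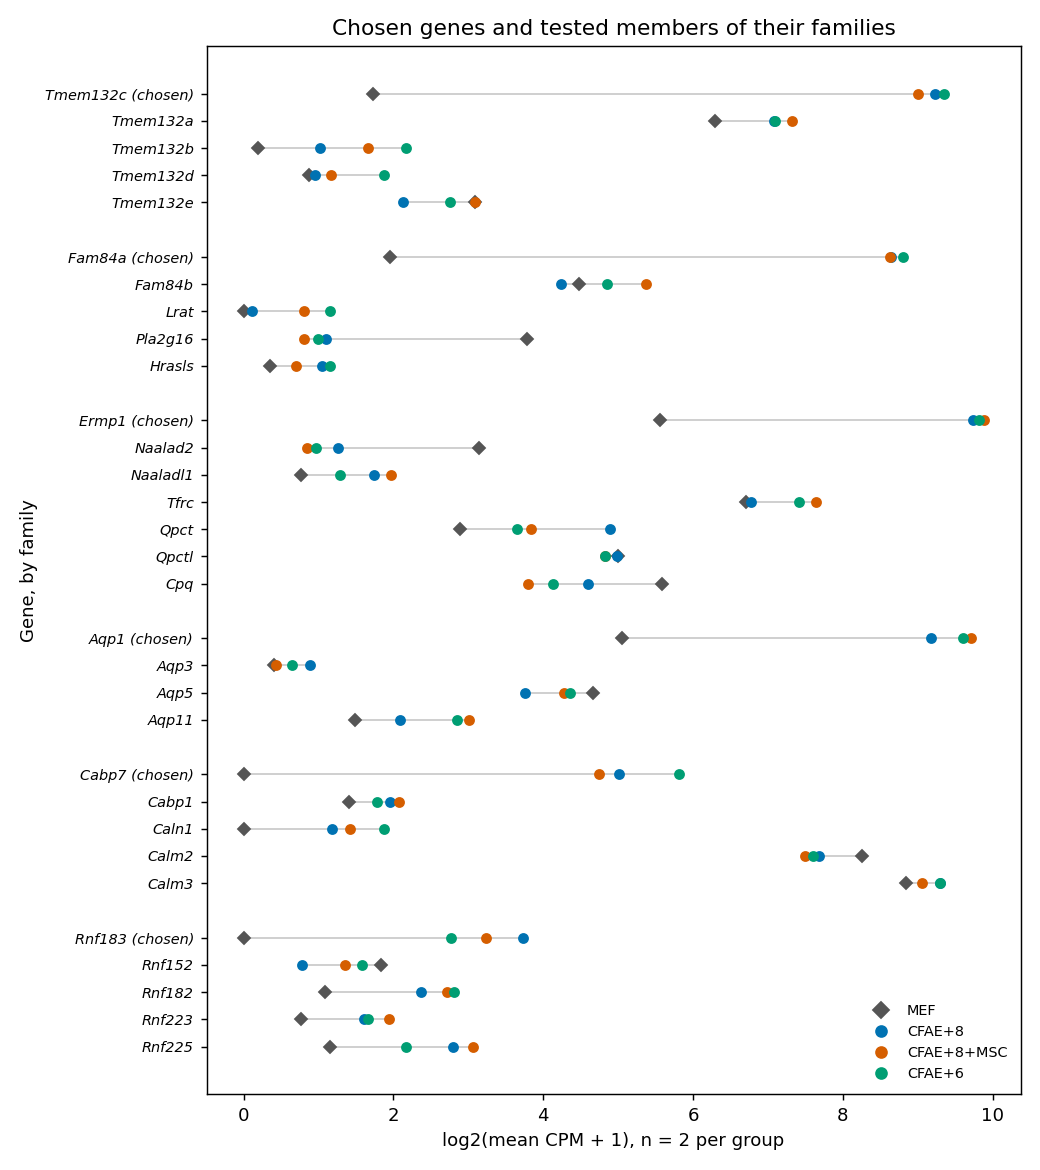
Mean level per group, as log2(CPM + 1), of 6 of the chosen genes and of their tested relatives named in the text, grouped by family; Fam163a had no tested relative. The chosen genes span the longest horizontal lines, which follows from how they were chosen. Calm3 is the relative with the highest level among those drawn.

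Pathways in which the proteins are known to work were checked next. For each list below, the median log2 difference over all tested genes was 0.012, 0.011 and 0.018 against MEF for CFAE+8, CFAE+8+MSC and CFAE+6, where 30.8%, 31.9% and 31.6% of all genes were higher and 31.3%, 32.2% and 31.5% lower. Between cocktails the median over all tested genes was -0.0045 with the CDK8/19 inhibitor, 0.00088 with E-616452 and -0.0042 between CFAE+8+MSC and CFAE+6, with the shares of higher and lower genes given above for these comparisons. In the unfolded protein response, the system that adjusts the endoplasmic reticulum to misfolded protein and in which Rnf183 and Ermp1 have been placed, most genes were lower than in MEF: 22, 19 and 18 of 24 with CFAE+8, CFAE+8+MSC and CFAE+6, and 1 higher in each (medians -0.43, -0.42 and -0.42 on the log2 scale). The higher one was Ern1, a sensor of the response, at 51.6, 42.1 and 42.0 CPM against 30.6. The chaperone gene Canx was at 964 CPM in MEF and 720, 830 and 784 CPM in the cocktails, and the stress transcription factor gene Atf4 at 293 against 209, 187 and 176 CPM. Between cocktails the same list gave 8 higher and 5 lower with the CDK8/19 inhibitor (median 0.03), 5 and 5 with E-616452 (median 0.00), and 1 and 0 between CFAE+8+MSC and CFAE+6 (median 0.06). Examples are Pdia6, a disulfide isomerase, at 440 CPM in CFAE+8 and 545 and 501 CPM in CFAE+8+MSC and CFAE+6, and Sdf2l1 at 18.4, 28.6 and 25.8 CPM.

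The tonicity response, driven by the factor NFAT5 in kidney cells that also express Aqp1 and Rnf183, gave 9 tested genes of 10. Against MEF, 3 were higher and 5 lower in CFAE+8, 4 and 4 in CFAE+8+MSC, and 4 and 3 in CFAE+6 (medians -0.38, 0.19 and 0.01). Nfat5 itself was at 192 CPM in MEF and 359, 477 and 369 CPM in the cocktails (log2 0.91, 1.31 and 0.94, adjusted p 7.71e-15, 8.74e-19 and 2.73e-15 in edgeR). With the CDK8/19 inhibitor 5 of the 9 were higher than in CFAE+8 and 0 lower (median 0.29), among them Nfat5, the inositol transporter gene Slc5a3 (104 against 57.2 CPM) and the chaperone gene Hspa4l (28.5 against 12.3 CPM). In CFAE+6, 2 were higher, Slc5a3 and Hspa4l, and Slc38a2, an amino acid transporter gene, was lower (300.4 against 370.1 CPM), with a median of 0.18. Between CFAE+8+MSC and CFAE+6, 4 were higher and 0 lower (median 0.18).

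For the phosphatidylinositol 4-kinase system that the protein of Cabp7 acts on, 9 of 9 genes were tested. Against MEF 1 was higher and 6 lower in CFAE+8, and 1 higher and 5 lower in each of the other two (medians -0.32, -0.19 and -0.22). The kinase gene Pi4ka was at 109 CPM in CFAE+8 and lower at 88.5 and 83.1 CPM in CFAE+8+MSC and CFAE+6, the calcium sensor gene Ncs1 at 143, 128 and 116 CPM likewise, and the kinase gene Pi4k2b was higher, at 26.7, 32.7 and 33.8 CPM. These were the 3 called in each comparison with CFAE+8 (medians 0.03 and 0.03), and Sacm1l, a lipid phosphatase gene, did not pass. No gene of the 9 was called between CFAE+8+MSC and CFAE+6 (median 0.00).

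In the BCL-2 family, which holds a known target of Rnf183, 3 of 9 genes were higher and 3 lower than in MEF in CFAE+8, 3 and 5 in CFAE+8+MSC, and 4 and 4 in CFAE+6 (medians -0.04, -0.14 and -0.05). Bcl2l1, which encodes that target, was lower in each cocktail, at 102, 109 and 121 CPM against 141. Pmaip1, a promoter of apoptosis, was at 63.0, 172 and 188 CPM with CFAE+8, CFAE+8+MSC and CFAE+6, and Bcl2 at 22.6, 35.6 and 24.4 CPM. Bid was lower in CFAE+8+MSC and in CFAE+6 than in CFAE+8 (8.42 and 8.47 against 12.7 CPM). With the CDK8/19 inhibitor 2 were higher and 1 lower (median -0.03), with E-616452 3 and 1 (median 0.05), and between CFAE+8+MSC and CFAE+6 2 and 1 (median -0.08).

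Genes next to the chosen ones on the chromosome were compared to see how far each rise extended. Of the 14 nearest protein-coding neighbours 12 were tested, and their log2 differences from MEF ran from -1.66 to 4.64. In CFAE+8 6 were higher and 4 lower than in MEF, in CFAE+8+MSC 6 and 2, and in CFAE+6 7 and 3. Over all tested genes 30.8%, 31.9% and 31.6% were higher and 31.3%, 32.2% and 31.5% lower in these 3 comparisons. Ric1, whose span ends 1385 bases from Ermp1, was at 61.9 CPM in MEF and 97.3, 102 and 96.0 CPM in the cocktails, and Prpf4, 550 bases from Rnf183, at 28.7 and 51.7, 54.8 and 50.3 CPM. Nf2 beside Cabp7 went from 91.7 to 173, 170.05 and 196 CPM, and Mindy4 beside Aqp1 from 5.22 to 11.7, 9.73 and 9.90 CPM. Each of these 4 passed as higher in all 3 cocktails, by 1.55-fold to 2.25-fold, beside chosen genes that stood at least 18.1-fold higher. The neighbour with the largest differences was Tmem132b, 1449225 bases from Tmem132c, whose log2 difference from MEF was 2.87, 3.95 and 4.64 in CFAE+8, CFAE+8+MSC and CFAE+6. Its 95% intervals were 1.32 to 4.42, 2.61 to 5.29 and 3.41 to 5.86, wide because MEF had 3 counts. The neighbours of Fam84a, 563019 and 1639673 bases away, were lower in all 3, Nbas at 42.2, 41.2 and 39.0 against 65.8 CPM and Trib2 at 21.7, 29.9 and 31.1 against 68.7 CPM. Slc15a4 beside Tmem132c was at 26.2 to 31.9 CPM in every group and lower only in CFAE+8 (adjusted p 0.0449 in edgeR), and Tor1aip2 beside Fam163a was lower in CFAE+8 and CFAE+6. Tdrd5, on the other side of Fam163a, had 4 counts in MEF, 3 in CFAE+8 and 20 in each of the other two, and like Fam163a it was higher in those than in CFAE+8 (adjusted p 0.0116 and 0.0139 in edgeR). Against MEF its log2 difference was 2.25 (interval 0.63 to 3.86) in CFAE+8+MSC and 2.22 (0.60 to 3.84) in CFAE+6, both passed. Wdr31 passed in no comparison. Zmat5, which overlaps Cabp7, was at 3.98 CPM in MEF and 6.90, 4.95 and 7.28 CPM in the cocktails, and passed in CFAE+8 and CFAE+6.

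**Figure D5:**
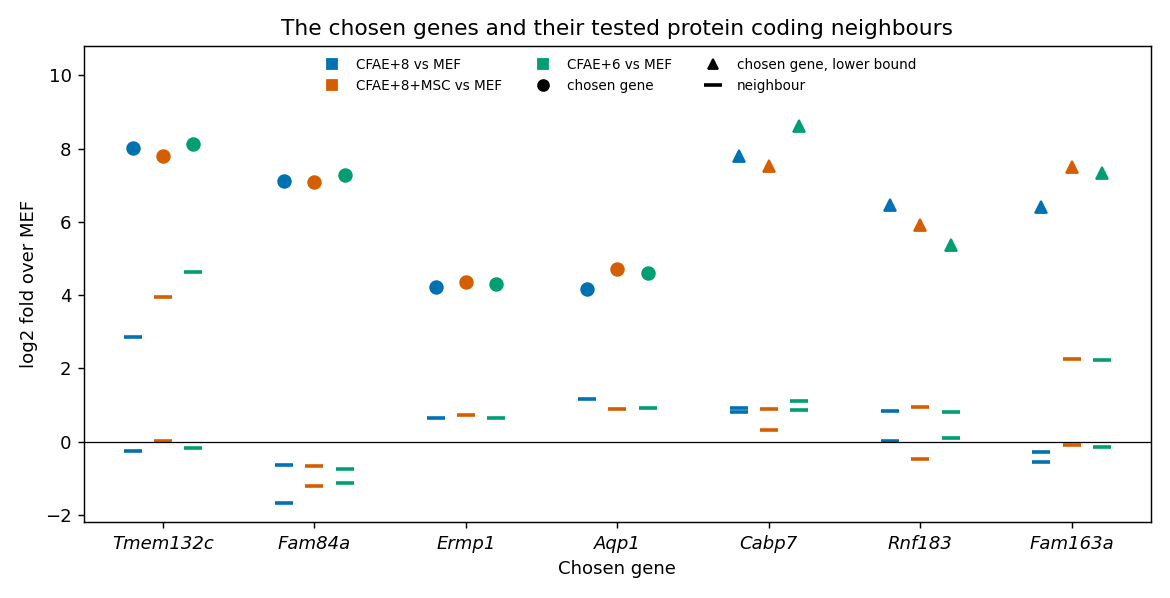
Log2 fold over MEF of each chosen gene (circles, or triangles for lower bounds) and of its tested protein-coding neighbours (dashes) in the 3 cocktails. The neighbours lie between -1.66 and 4.64, below the chosen gene beside them in every case, which follows from how the chosen genes were picked.

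The genes with the most similar pattern were looked up among 11287 protein-coding candidates, by the root mean square difference of centred log2 CPM over the 8 libraries, which all contain the MEF step. Ermp1 was followed most closely by Angptl4 (0.10), which encodes a lipase inhibitor, and Jarid2 (0.13), a cofactor of Polycomb complexes. Aqp1 was followed by Dach1 (0.12) and the ion channel relative Ano4 (0.15), Fam84a by the receptor gene Tnfrsf19 (0.18), and Tmem132c by the collagen gene Col26a1 (0.17) and the phosphatase gene Ptpn5 (0.26). Fam163a was followed by the homeobox gene Msx1 (0.23) and Tcerg1l (0.24), and Rnf183 by Tcf7 (0.25), a transcription factor of the Wnt pathway, and Fhod3 (0.34). Tcf7 had the order of Rnf183, at 3.18 CPM in MEF and 185, 139 and 129 CPM in CFAE+8, CFAE+8+MSC and CFAE+6. Msx1 had that of Fam163a, at 2.39 CPM and then 202, 333 and 277 CPM. The nearest match of Cabp7 was another of the chosen genes, Tmem132c, at 0.35, with Col26a1 next at 0.41. These distances are a description over 8 libraries in 4 groups and carry no test.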

How the data were processed

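RNA-seq counts per gene for 8 libraries came from one table that the authors deposited. The submitters' processing notes name mm10, featureCounts, Subread and DESeq2. Neither the annotation nor the strand setting of the counting is stated, and the NEBNext Ultra RNA kit named in the labels' protocols does not mark strand. The counts were tested as deposited with edgeR 4.0.16 in R 4.3.3 (filterByExpr, TMM scaling, 1 mean per group over all 8 libraries, glmQLFTest, Benjamini-Hochberg adjustment over 15470 genes, threshold 0.05). The script was tested on simulated data. Library totals were 10958430 to 11913143. Replicates differed by more than sampling noise (chi-square over its degrees of freedom between 1.89 and 2.74). Against a MEF group at 0, folds were taken against 3 counts over the group. The members and lists were chosen with earlier results of these data known. Named genes were the 7 members, tested relatives, nearest neighbours, up to 4 genes per pathway with the smallest adjusted p between cocktails, and the 2 genes per member with the most similar profile (mean of at least 5 CPM in 1 group). Ern1, Gad1 and the marker genes fall outside that rule and were named after their values were seen. Alternatives were other scalings, filters, DESeq2 1.42.0, the 2 groups alone, a replicate block, a 1.2-fold threshold and leaving out each library. Gene models were checked against GENCODE M21, which gave all 7 the same start and end. Results for some genes that fit the rule are not reported here.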

Additional observations from a re-analysis of the deposited data

How the results depend on the processing

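The calls of Aqp1 and Fam163a against CFAE+8, of Cabp7 in both comparisons with CFAE+6, and of Rnf183 in CFAE+6 against CFAE+8 held in all 16 alternatives. Genes called with the CDK8/19 inhibitor numbered 4538, and 2806 by DESeq2, 2025 against a 1.2-fold threshold and 3181 to 4747 with 1 library left out. With E-616452 they numbered 4116, and 2525, 1654 and 2720 to 4154, and between CFAE+8+MSC and CFAE+6 1621, and 887, 279 and 947 to 1531. The low ends were 2720 without the second CFAE+8 library, and 990 without the first CFAE+8+MSC and 947 without the second CFAE+6 library. Against the 1.2-fold threshold the share of higher calls went from 53.1%, 53.8% and 59.3% to 63.9%, 65.6% and 68.1%. Against it 2 of the 7 genes were called with the CDK8/19 inhibitor, 4 with E-616452 and 1 between CFAE+8+MSC and CFAE+6. These stand beside 2025, 1654 and 279 of the 15470 tested genes. With 1 library left out, the number of the 7 called ran from 3 to 6, 4 to 6 and 2 to 3. The lone library of a group was then taken to vary like the others. Fam84a with the CDK8/19 inhibitor turned from -0.014 to 0.000072 (log2) without the second CFAE+8+MSC library and was -0.021 without the first. Rnf183 with the CDK8/19 inhibitor was not called by DESeq2 (adjusted p 0.22), nor Cabp7 (0.253). The cause of these shifts was not tested. Without either MEF library the lower bounds on Cabp7, Rnf183 and Fam163a went down, for Cabp7 in CFAE+8 from a log2 of 7.80 to 6.77 at the lowest, because the same 3 counts are then set over 1 library.

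Replicate numbers did not pair the libraries: deviations of libraries with the same number correlated by -0.064 to 0.13 over 10279 genes. With the replicate block 4531, 4124 and 1679 genes were called, and of the 7 genes 5, 5 and 3, Cabp7 with the CDK8/19 inhibitor being the call lost (adjusted p 0.0512). Other scalings moved the median of all genes by at most 0.043 (log2), too little to turn the sign of most calls. With upper-quartile scaling 2 of 8 pathway calls between CFAE+8+MSC and CFAE+6 were lost, 2 of 42 in CFAE+8+MSC against MEF and 1 of 40 in CFAE+6 against MEF, with 1 of 10 neighbour calls each in CFAE+8 and CFAE+6 against MEF and 1 of 20 calls of relatives in CFAE+6 against MEF. With DESeq2 size factors 1 of 44 pathway calls in CFAE+8 against MEF was lost. For genes at few counts, such as Rnf183 at 64 to 147 per cocktail library, the depth leaves wide intervals.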
